A study of Mus musculus with 9 samples.

Results

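Of the 23997 genes listed for retinal ganglion cells (RGCs), the neurons whose axons form the optic nerve, 9 genes of the thioredoxin and peroxiredoxin system were followed by gene symbol (Txn1, Txn2, Txnrd1, Txnip, Prdx1, Prdx2, Prdx3, Prdx5 and Prdx6). All 9 of 9 passed the filter on low values (a mean of at least 0.5 FPKM), as did 13043 genes in all. The 9 genes were selected with their values in all 3 comparisons known, among them the lower level of Txn1 under Mild IOP and its higher level under Moderate IOP. Their differences are therefore described with their errors, and no test of them is used as support.

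RGCs came from C57BL/6J mice whose anterior chamber had received saline (Control) or microbeads, which raise intraocular pressure (IOP), and were collected after 2 weeks, at a labelled age of 8 weeks. Injected eyes with pressure elevation formed the Mild IOP and Moderate IOP groups by the size of the rise. Cells were purified by immunopanning, with removal of macrophages, microglia, endothelial cells and amacrine cells before capture with an antibody against Thy1.2. The RNA of each group was pooled over animals and split into 3 libraries, so the 9 libraries are technical replicates of 3 pools, and every SD, standard error and p-value below covers the spread between libraries of a pool and not between mice. All 3 groups share a wild type background, and C57BL/6J mice carry a deletion in Nnt, a mitochondrial enzyme that makes NADPH.

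Peroxiredoxins break down hydrogen peroxide and other peroxides with a reactive cysteine, and most of them are returned to the reduced state by a thioredoxin. Thioredoxin reductases then reduce thioredoxin with electrons from NADPH, while Txnip binds reduced thioredoxin and holds it inactive. Txn1, Txnrd1, Prdx1, Prdx2 and Prdx6 act mainly in the cytosol, Txn2 and Prdx3 in mitochondria, and Prdx5 in mitochondria, peroxisomes and the cytosol.

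Several genes of the system, Prdx1 and Txnrd1 among them, are known targets of the transcription factor Nrf2, which binds the antioxidant response element. The core of that element (TGACNNNGC, where N is any base) and the E-box CACGTG were searched on both strands. The RefSeq promoter windows of GRCm38.p6 run from 250 bases before to 50 bases after a start site. Only the exact letters CACGTG were counted, so variant E-boxes, in the Txnip window or others, were not searched. Windows were found for 8 of the 9 genes (10 windows, 3 of them for Txnrd1), with none for Prdx6. The core stood in 2 of the 10 windows, against 12.4% of all 32851 windows, and the E-box in none of them, against 7.15%. The 3 windows shown here belong to Txn1 (chr4:57956362-57956661, minus strand), whose window held neither motif, to Prdx1 (chr4:116685349-116685648, plus strand) and to Txnrd1 (chr10:82858956-82859255, plus strand). Capitals mark the reverse complement of the core, with its first base at -133 from the start site in Prdx1 and at -92 in Txnrd1.
Txn1: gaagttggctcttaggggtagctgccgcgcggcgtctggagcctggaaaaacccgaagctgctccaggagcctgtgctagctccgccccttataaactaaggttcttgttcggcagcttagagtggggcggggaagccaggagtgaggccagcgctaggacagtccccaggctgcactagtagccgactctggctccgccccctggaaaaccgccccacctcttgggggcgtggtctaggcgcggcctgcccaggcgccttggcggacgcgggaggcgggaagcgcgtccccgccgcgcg
Prdx1: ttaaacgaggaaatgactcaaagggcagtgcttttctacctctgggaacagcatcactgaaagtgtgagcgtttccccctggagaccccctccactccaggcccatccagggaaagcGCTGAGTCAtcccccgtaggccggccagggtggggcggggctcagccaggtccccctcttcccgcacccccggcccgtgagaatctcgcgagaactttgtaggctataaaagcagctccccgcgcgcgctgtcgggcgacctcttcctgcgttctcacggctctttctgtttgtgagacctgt
Txnrd1: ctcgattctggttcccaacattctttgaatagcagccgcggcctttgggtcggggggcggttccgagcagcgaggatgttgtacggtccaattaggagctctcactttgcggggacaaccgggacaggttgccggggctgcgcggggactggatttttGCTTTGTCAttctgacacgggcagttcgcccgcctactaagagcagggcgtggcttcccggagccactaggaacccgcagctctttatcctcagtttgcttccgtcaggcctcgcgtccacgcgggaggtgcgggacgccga
A match describes these letters in this window and does not show a bound site.

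The 9 libraries had derived depths of 4860000 to 8740000 fragments, between 14182 and 14914 genes above 0, and scaling factors of 0.983 to 1.06. Read totals were not used here, and fragments were derived instead from the confidence bounds that accompany each value, which comes out too low for abundant genes (a median ratio of 0.704 to 0.75 to the product of FPKM, length and depth between 100 and 1000 FPKM). RGC markers were present in every library, at a summed level of 1418 to 1502 FPKM in Control, 1037 to 1284 under Mild IOP and 2243 to 2391 under Moderate IOP over 8 markers (Rbpms, Pou4f1, Pou4f2, Thy1, Sncg, Nefl, Slc17a6 and Isl1). Most of each sum was Sncg, with means of 911 in Control, 641 under Mild IOP and 1389 under Moderate IOP. Under Mild IOP 2 of the 8 had means above Control, Nefl (343 in Control and 374) and Slc17a6 (36.1 and 36.6), and the others lay below. Under Moderate IOP 7 of the 8 did, all but Pou4f2 (9.51 in Control and 8.91). Lens markers stood apart, at 216 to 282 FPKM in Control against 0.888 to 1.65 under Mild IOP and 0.443 to 1.62 under Moderate IOP. Rod markers lay at 423 to 512 in Control, 278 to 322 under Mild IOP and 283 to 313 under Moderate IOP, amacrine cell markers at 717 to 751, 782 to 840 and 516 to 559, and Müller glia markers at 113 to 123, 105 to 135 and 160 to 214. The lower amacrine sum under Moderate IOP lay in Gad1 (a mean of 549 in Control and 421 under Moderate IOP) and Slc6a9 (110 and 39.3), while the means of Tfap2a, Tfap2b and Slc32a1 were above Control. The 2 endothelial markers Cldn5 and Cdh5 were listed at 0 in every library, and the summed microglia and macrophage markers did not exceed 17.1 FPKM. In these pools, fewer cells of a type and less RNA per cell cannot be told apart, and the part of these marker differences in the results below was not tested.

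**Figure D1:**
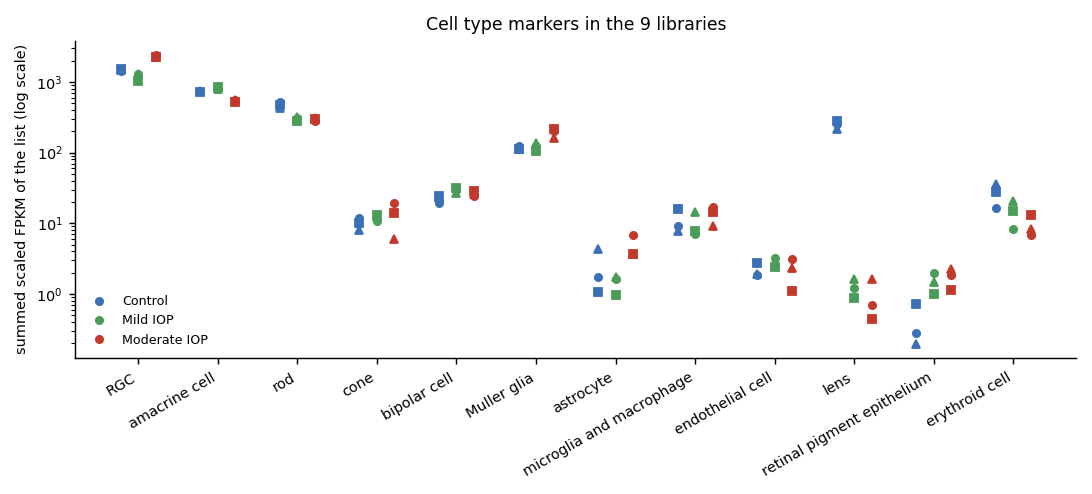
Summed scaled FPKM (log axis) of 12 marker lists in the 9 libraries, 1 point a library, with colours for the groups and circle, square and triangle for replicates 1, 2 and 3 (some points are hidden behind others). RGC markers are highest under Moderate IOP (2243 to 2391), and lens markers are above 216 only in the Control libraries.

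In Control RGCs the system was led by its most abundant peroxiredoxins. Prdx5 stood at 792 ± 17.5 FPKM (SD, n = 3) and Prdx2, a peroxiredoxin abundant in neurons, at 662 ± 64.6, above 99.5% and 99.2% of all genes tested. Both exceeded mitochondrial Txn2 (258 ± 19.5) in every library, and Txn2 exceeded Prdx1 (153 ± 25.5). Prdx1 and Txn1 (133 ± 18.7), neighbours in this order, overlapped. Prdx3 (65.6 ± 8.22), Prdx6 (42.1 ± 3.18), the reductase gene Txnrd1 (15.6 ± 3.86) and Txnip (1.41 ± 0.727) followed, each below the gene before it in all 3 libraries. The mitochondrial thioredoxin mRNA was thus more abundant per length than the cytosolic one, with a Txn1 to Txn2 ratio of 0.461 to 0.547. FPKM is a level per transcript length and sequencing depth, so these levels can be set beside each other across genes. Libraries of one pool differed more than their reported counting bounds in many cases, since 47 of 81 pairs of replicate libraries over the 9 genes had bounds that did not overlap, from 3 of 9 pairs for Txnrd1 to 8 of 9 for Txn2 and Prdx2.

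**Figure D2:**
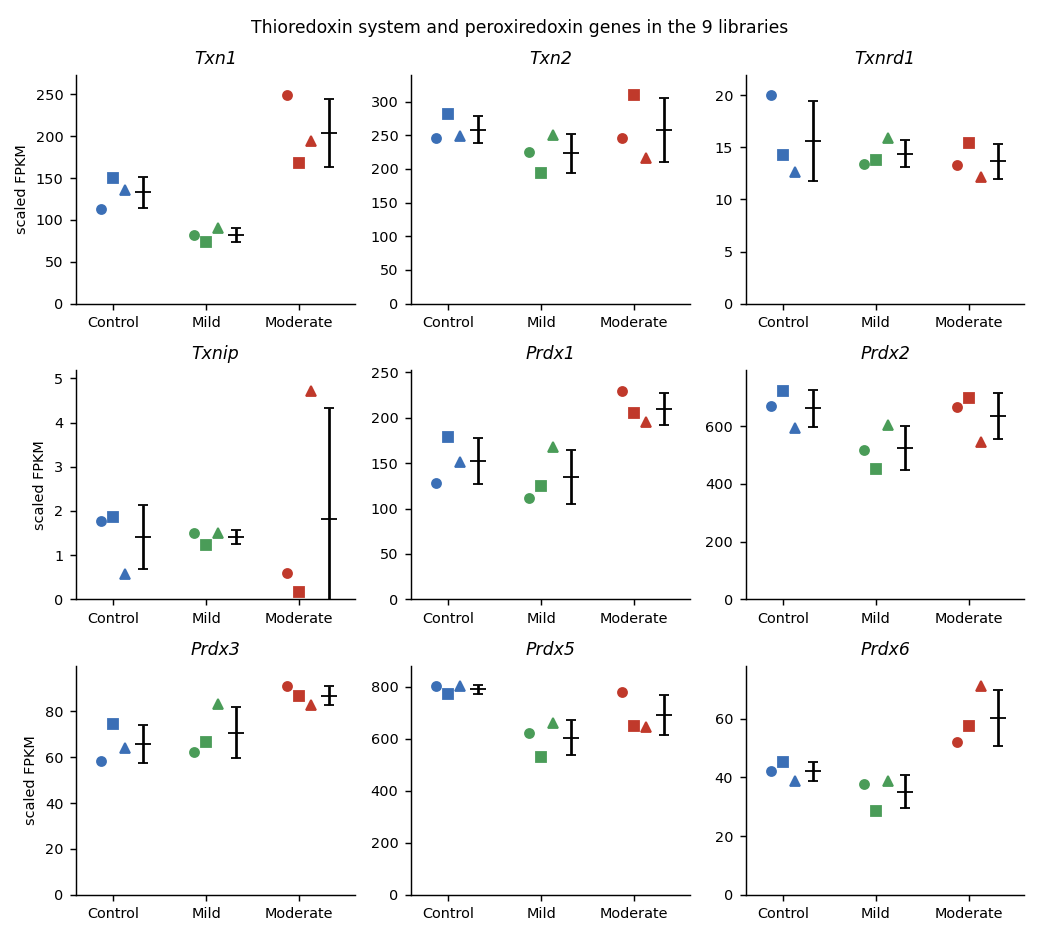
Scaled FPKM of the 9 genes in Control (blue), Mild IOP (green) and Moderate IOP (red), with circle, square and triangle for replicates 1, 2 and 3 and the group mean ± SD in black (the Txnip bar is cut at 0). Txn1 lies at 113 to 150 in Control, 73.3 to 89.9 under Mild IOP and 169 to 249 under Moderate IOP, and the 3 ranges do not overlap.

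Txn1, the cytosolic thioredoxin (mm10 chr4:57943373-57956411), was the gene of the set whose level differed most between the groups. It was at 113, 150 and 136 FPKM in the Control libraries, 82.1, 73.3 and 89.9 under Mild IOP, and 249, 169 and 194 under Moderate IOP. Every Mild IOP library lay below every Control library, and every Moderate IOP library above. On the log2(FPKM + 1) scale, on which all differences here are given, the difference was -0.69 ± 0.16 (SE) between Mild IOP and Control, 0.60 ± 0.16 between Moderate IOP and Control, and 1.29 ± 0.16 between Moderate IOP and Mild IOP. These are the values on which Txn1 was chosen. The order of the 3 groups was the same under each of 4 ways of scaling the libraries. None of the alternatives that can move a difference changed the sign for Txn1. Moderate IOP replicate 1 (249) stood well above its other 2 replicates, and Txn1 rested on 414 to 1284 derived fragments a library.

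Txn2, the mitochondrial thioredoxin (chr15:77915051-77928994), stands at the same step of the pathway in that organelle. It was at 246, 281 and 248 FPKM in Control, 225, 193 and 251 under Mild IOP, and 246, 309 and 217 under Moderate IOP, and all 3 groups overlapped. Its differences from Control were -0.22 ± 0.15 under Mild IOP and -0.02 ± 0.15 under Moderate IOP. The ratio of Txn1 to Txn2, in which library scaling cancels, was 0.514 ± 0.0468 in Control, 0.367 ± 0.0109 under Mild IOP (range 0.358 to 0.379) and 0.817 ± 0.242 under Moderate IOP (range 0.546 to 1.01). The Mild IOP ratios lay below all Control ratios, while the lowest Moderate IOP ratio (0.546) fell just under the highest Control ratio (0.547).

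Txnrd1, the cytosolic thioredoxin reductase (chr10:82833951-82897724), was at 19.97, 14.3 and 12.6 FPKM in Control, 13.4, 13.8 and 15.8 under Mild IOP, and 13.3, 15.4 and 12.2 under Moderate IOP. The groups overlapped in every comparison, with differences of -0.09 ± 0.19 under Mild IOP and -0.16 ± 0.19 under Moderate IOP against Control. Txnip, the thioredoxin-binding inhibitor (chr3:96557957-96561857), was close to the filter on low values. Its level was 1.78, 1.87 and 0.568 FPKM in Control, 1.5, 1.23 and 1.49 under Mild IOP, and 0.587, 0.164 and 4.72 under Moderate IOP. The 3 Moderate IOP libraries, split from one pool, thus spanned its lowest and its highest level, on 3.24 to 72.8 derived fragments, and no group difference can be read from Txnip over this spread.

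Prdx1, a cytosolic peroxiredoxin reduced by Txn1 (chr4:116685599-116700000), was at 128, 179 and 151 FPKM in Control, 112, 125 and 168 under Mild IOP, and 230, 206 and 195 under Moderate IOP. Moderate IOP lay above both other groups without overlap, and Control and Mild IOP overlapped. The difference was 0.47 ± 0.17 between Moderate IOP and Control and 0.65 ± 0.17 between Moderate IOP and Mild IOP. Prdx2, its close relative (chr8:84969648-84974313), was at 670, 722 and 593 in Control, 517, 453 and 605 under Mild IOP, and 666, 696 and 545 under Moderate IOP, and all groups overlapped. Its differences from Control were -0.34 ± 0.14 under Mild IOP and -0.06 ± 0.14 under Moderate IOP. Prdx1 stood at 0.191 to 0.254 of the Prdx2 level in Control, 0.216 to 0.278 under Mild IOP and 0.296 to 0.358 under Moderate IOP, so the share of Prdx1 in this pair was highest in all 3 Moderate IOP libraries. Prdx2 overlaps Rnaseh2a on the opposite strand (9.02 FPKM), and the library kit does not keep strand, so reads of the overlap cannot be told apart.

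Prdx3, the mitochondrial peroxiredoxin reduced by Txn2 (chr19:60864066-60874538), was at 58.2, 74.4 and 64.0 FPKM in Control, 62.4, 66.5 and 83.2 under Mild IOP, and 90.8, 86.7 and 82.6 under Moderate IOP. Moderate IOP lay above every Control library, by 0.40 ± 0.14, and overlapped Mild IOP, whose difference from Control was 0.10 ± 0.14. Prdx5 (chr19:6906819-6909645) showed another pattern, at 801, 771 and 802 FPKM in Control, 622, 530 and 660 under Mild IOP, and 782, 650 and 647 under Moderate IOP. Its Mild IOP libraries lay below every Control library, by -0.40 ± 0.12, and its Moderate IOP libraries, at -0.20 ± 0.12, overlapped Control in replicate 1 only, an overlap that was absent under the 3 other scalings. The Prdx3 to Prdx5 ratio was 0.0727 to 0.0965 in Control, 0.10 to 0.126 under Mild IOP and 0.116 to 0.133 under Moderate IOP, above Control in all 6 libraries of both pressure groups. Prdx5 overlaps Trmt112 on the opposite strand, at 133 FPKM, and the part of Trmt112 reads in the Prdx5 level was not tested.

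Prdx6, a peroxiredoxin with a single reactive cysteine that relies on glutathione rather than thioredoxin and also acts on phospholipids (chr1:161240112-161251166), was at 42.2, 45.2 and 38.8 FPKM in Control, 37.9, 28.6 and 38.7 under Mild IOP, and 52.2, 57.6 and 71.0 under Moderate IOP. Moderate IOP lay above both other groups, by 0.50 ± 0.16 against Control and 0.77 ± 0.16 against Mild IOP. The highest Mild IOP library and the lowest Control library were nearly equal, and Mild IOP (-0.27 ± 0.16) overlapped Control under the 3 other scalings. Pseudogenes of Txn1, Prdx2 and Prdx6 are annotated in GENCODE, and how reads shared with them were assigned is uncertain.

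**Figure D3:**
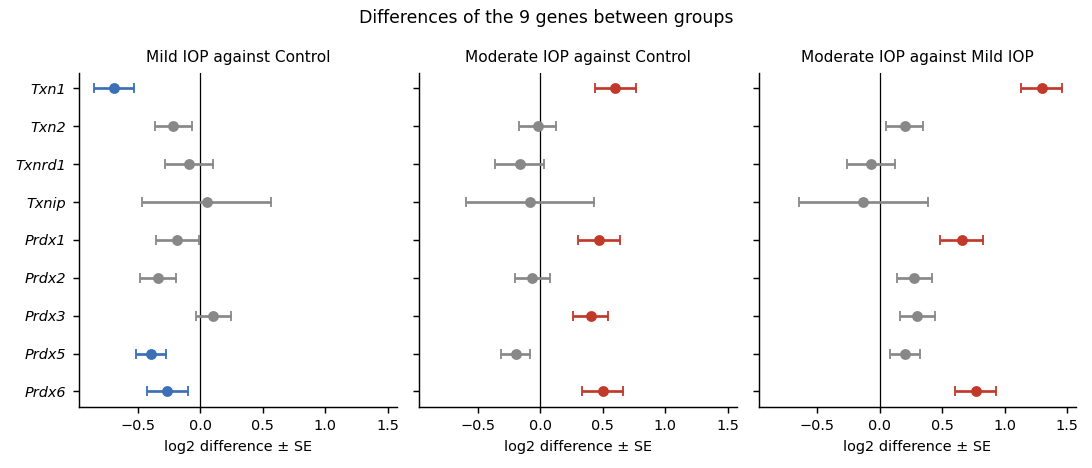
Log2 differences ± SE of the 9 genes in the 3 comparisons, with red where all libraries of the first group lay above the second, blue where they lay below, and grey where they overlapped. Txn1 is at -0.69, 0.60 and 1.29, and Txn2, Txnrd1, Txnip and Prdx2 are grey in all 3 panels.

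Counted over the set, 7 of the 9 genes had a negative difference under Mild IOP. Over all genes tested 6391 of 13043 did, and 1472 of the 1991 genes of at least 50 FPKM. Of the 9 genes, 3 (Txn1, Prdx5 and Prdx6) lay lower without overlap, against 9.13% of all genes tested. Under Moderate IOP 4 of 9 genes (Txn1, Prdx1, Prdx3 and Prdx6) lay above Control without overlap, against a background of 9.95%, and 3 of 9 (Txn1, Prdx1 and Prdx6) lay above Mild IOP, against 14.5%. These shares were higher among the 1991 genes of at least 50 FPKM, a level that most of the 9 reached. Of those 1991 genes, 536 lay below Control under Mild IOP without overlap. Under Moderate IOP 393 lay above Control and 851 above Mild IOP. With limma and Benjamini-Hochberg adjustment over all 13043 genes, 0 of 9 passed an FDR of 0.1 under Mild IOP against Control, where 0.399% of all genes did, and 3 of 9 had an unadjusted p under 0.05, as did 10.2% of all genes. Against Control under Moderate IOP, 0 of 9 passed, where 1.84% of all genes did, and 4 had an unadjusted p under 0.05, as did 15.3% of all genes. Between Moderate IOP and Mild IOP 3 of 9 passed (Txn1, Prdx1 and Prdx6), where 10.2% of all genes did. Of the 1991 genes of at least 50 FPKM, 563 passed as higher and 75 as lower in that comparison. Because these contrasts chose the genes, nothing is read from the counts.

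The median difference of the 9 genes was -0.22 under Mild IOP, -0.02 under Moderate IOP and 0.28 between Moderate IOP and Mild IOP, against medians of 0.0062, 0.0040 and -0.016 over all genes tested. Scaled on genes of at least 50 FPKM instead, the medians of the 9 were -0.035, -0.084 and 0.029, and 6 of 9 rather than 7 were negative under Mild IOP. Level and transcript length moved with these differences. Over the 1846 genes between 50 and 500 FPKM the medians were -0.15, 0.085 and 0.24, and over the 145 genes from 500 FPKM upward, Prdx2 and Prdx5 among them, they were -0.30, 0.13 and 0.50. Among genes of at least 50 FPKM, the 489 with a transcript under 1000 nt had medians of -0.49, 0.22 and 0.73, the 755 of 1000 to 2000 nt -0.17, 0.11 and 0.27, and the 673 longer ones 0.0044, -0.035 and -0.059. Prdx2 under Mild IOP (-0.34, a transcript of 1545 nt) was thus near the median of genes of its level (-0.30) and below that of its length class (-0.17). Prdx5 (-0.40, a transcript of 755 nt) lay between the medians of its level (-0.30) and of transcripts under 1000 nt (-0.49). Txn1 (-0.69, a transcript of 1051 nt) lay below the medians of its level (-0.15) and length class (-0.17). It was nearer the median of transcripts under 1000 nt (-0.49), and below that as well. The part of level and length in these differences was not tested.

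**Figure D4:**
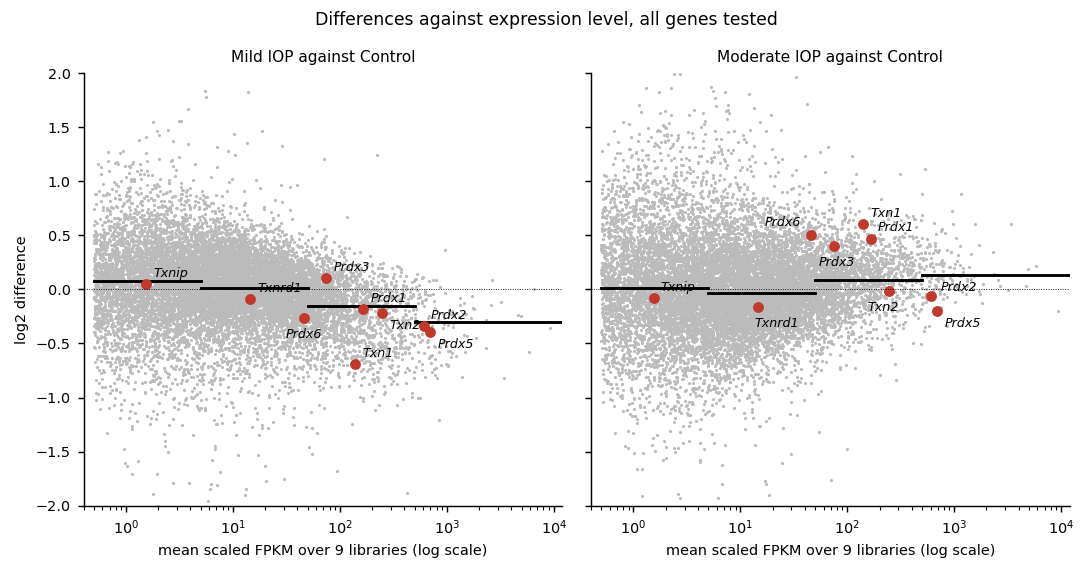
Log2 difference from Control against mean scaled FPKM (log axis) for the genes tested (grey), with the 9 genes in red and black bars for the median within each range of levels (63 genes beyond 2 in either comparison lie outside the axes). Under Mild IOP the bars fall from 0.078 at the lowest levels to -0.30 at the highest, with Txn1 well below them, and under Moderate IOP Txn1, Prdx1, Prdx3 and Prdx6 lie above them.

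As sums, the 5 peroxiredoxins reached 1714 ± 72.3 FPKM in Control, 1370 ± 177 under Mild IOP and 1686 ± 140 under Moderate IOP. The 2 thioredoxins reached 391 ± 36.5, 305 ± 37.2 and 461 ± 44.6. Prdx2 and Prdx5 together made up 84.8% ± 1.62 of the peroxiredoxin sum in Control, 82.5% ± 1.61 under Mild IOP and 78.7% ± 1.20 under Moderate IOP, where all 3 libraries (77.4% to 79.5%) lay below those of the other groups. The summed peroxiredoxin level of Moderate IOP was thus near that of Control while its make-up held more of the less abundant Prdx1, Prdx3 and Prdx6.

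The genes whose pattern over the 9 libraries was most like that of Txn1, by the root mean square of the log2 difference after centring each gene, were Fkbp2 (0.163), Rps9 (0.171), Sncg (0.172), Tmsb10 (0.174) and Spcs1 (0.179), of 6041 genes ranked and with a median of 0.584. Sncg, an RGC marker, stood at 911 ± 49.6 FPKM in Control, 641 ± 117 under Mild IOP and 1389 ± 34.1 under Moderate IOP. Fkbp2, a prolyl isomerase of the endoplasmic reticulum, stood at 311 ± 23.0, 198 ± 20.5 and 416 ± 103. Within the system Prdx1 (0.313, rank 276) and Prdx6 (0.326, rank 321) were nearest to Txn1, and Txnrd1 (0.636, rank 3841) furthest, with Txnip not ranked because its mean was under 10 FPKM.

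Of 50 other genes of the pathway, 46 were tested, and their p-values were adjusted over all 13043 genes. None of the 46 passed an FDR of 0.1 under Mild IOP or under Moderate IOP against Control by limma, with 5 (10.9%) and 8 (17.4%) at an unadjusted p under 0.05, near the 10.2% and 15.3% of all genes. Between Moderate IOP and Mild IOP 3 were higher and 0 lower under Moderate IOP, a share of 6.52% against the 10.2% of all genes past the same FDR. At an unadjusted p under 0.05 there were 11 (23.9%), against 21.8% of all genes. The medians of the list were -0.069, -0.026 and 0.015. On leaving out single libraries, 0 of 46 passed without Mild IOP replicate 1 or without Mild IOP replicate 2, and 1 passed without Moderate IOP replicate 1 or without Moderate IOP replicate 3. Txndc9 and Msrb1 did not pass without Moderate IOP replicate 2. Calls over all genes fell as well, from 917 higher and 407 lower. They were 599 and 148 without Mild IOP replicate 1, and 428 and 91 without Mild IOP replicate 2. Whether the loss came from these libraries or from fewer libraries was not tested.

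The calls included both tested genes for methionine-R-sulfoxide reductases, enzymes that repair oxidised methionine and are themselves reduced by thioredoxin. Msrb1 was at 1.82, 2.44 and 5.82 FPKM in Control, 3.59, 2.13 and 4.18 under Mild IOP, and 6.72, 10.2 and 15.0 under Moderate IOP, and it was higher by 1.40 ± 0.37 in the Moderate IOP pool than in the Mild IOP pool (FDR 0.0526). Msrb2, the mitochondrial form, was at 6.62, 8.54 and 7.99 in Control, 6.14, 7.08 and 13.0 under Mild IOP, and 22.9, 12.2 and 24.6 under Moderate IOP, higher by 1.11 ± 0.30 (FDR 0.0577). In Msrb1 all Moderate IOP libraries lay above both other groups, and in Msrb2 they lay above Control, with one Mild IOP library above the lowest of them. Against Control their differences of 1.46 and 1.21 had an FDR of 0.109 and 0.104. Across the glutaredoxins and methionine sulfoxide reductases 2 of 7 tested genes passed between Moderate IOP and Mild IOP, the 2 named, against 10.2% of all genes. All 7 differences were positive, as were 6314 of all 13043. Of 8 tested under the other scalings, 6 were positive without scaling and with upper quartile scaling. With scaling on genes of at least 50 FPKM, 5 of 8 were. Glrx5, a mitochondrial glutaredoxin of iron-sulfur cluster assembly, had 0.54 (FDR 0.109), and Msra, which repairs the other form of oxidised methionine, 0.042 (FDR 0.915).

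The third call was Txndc9, a thioredoxin-like protein that acts with the chaperonin that folds tubulin and actin. It was at 15.0, 20.3 and 21.3 FPKM in Control, 14.1, 10.2 and 13.9 under Mild IOP, and 20.6, 21.5 and 19.2 under Moderate IOP, higher by 0.65 ± 0.18 under Moderate IOP than under Mild IOP (FDR 0.0655). Every Mild IOP library lay below every library of the other groups. It was the only one of 12 other thioredoxin-fold proteins and reductases to pass, a share of 8.33% beside the 10.2% of all genes. Tmx2 and Tmx4, thioredoxin-like proteins of the endoplasmic reticulum membrane, had differences of -0.12 (FDR 0.566) and -0.39 (FDR 0.207) in that comparison, and the mitochondrial reductase gene Txnrd2, named after its values were seen, held 10.98 ± 1.37 FPKM in Control, 10.3 ± 1.14 under Mild IOP and 11.9 ± 4.37 under Moderate IOP.

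Repair of overoxidised peroxiredoxin is carried out by sulfiredoxin, encoded by Srxn1. Its level was 121, 112 and 105 FPKM in Control, 88.3, 80.4 and 74.7 under Mild IOP, and 87.4, 104 and 82.5 under Moderate IOP, below Control in all 6 libraries of both pressure groups. The differences of -0.47 ± 0.13 and -0.30 ± 0.13 did not pass (FDR 0.215 and 0.294). Sesn2, a stress-induced sestrin, was at 29.99, 31.3 and 33.4 in Control, 22.7, 23.2 and 23.1 under Mild IOP, and 23.2, 21.9 and 23.1 under Moderate IOP. Its differences of -0.44 ± 0.13 and -0.45 ± 0.13 did not pass either (FDR 0.236 and 0.138), although neither group overlapped Control. Prdx4, the peroxiredoxin of the endoplasmic reticulum, named after its values were seen, was at 8.39 ± 5.19 FPKM in Control, 14.1 ± 7.06 under Mild IOP and 18.4 ± 1.46 under Moderate IOP (Moderate IOP against Control 1.18 ± 0.42, FDR 0.216).

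None of the 8 tested genes of the Nrf2 group passed in any of the 3 comparisons, where 0.399%, 1.84% and 10.2% of all genes did. With scaling on genes of at least 50 FPKM, 1 of the 8 passed between Moderate IOP and Mild IOP. Under that scaling 2209 genes passed in all. Keap1, the inhibitor of Nrf2, stood at 32.6 ± 1.22 FPKM in Control, 33.5 ± 2.37 under Mild IOP and 30.8 ± 2.91 under Moderate IOP, and Gclm, a subunit of the enzyme that starts glutathione synthesis, at 17.8 ± 6.67, 12.7 ± 3.43 and 14.1 ± 3.43. None of the 6 genes of NADPH supply passed with the scaling used here. Between Moderate IOP and Mild IOP, 1 of 6 passed without scaling and with upper quartile scaling. With scaling on genes of at least 50 FPKM, 2 of 6 did. Idh1, a cytosolic source of NADPH, stood at 53.4 ± 3.59 in Control, 66.0 ± 4.84 under Mild IOP and 65.5 ± 5.17 under Moderate IOP, above Control in all 6 libraries, with differences of 0.30 (FDR 0.421) and 0.29 (FDR 0.297). G6pdx, the first enzyme of the pentose phosphate pathway, differed by 0.085 and -0.018 (FDR 0.907 and 0.971). None of the 8 tested thioredoxin clients, Txnip relatives and Txnip regulators passed, and 1 did between Moderate IOP and Mild IOP with scaling on genes of at least 50 FPKM. Rrm1, the large subunit of ribonucleotide reductase, which thioredoxin reduces, differed by -0.13 and -0.0091, and Mlx, a partner of the factors that drive Txnip, by -0.10 and -0.32.

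**Figure D5:**
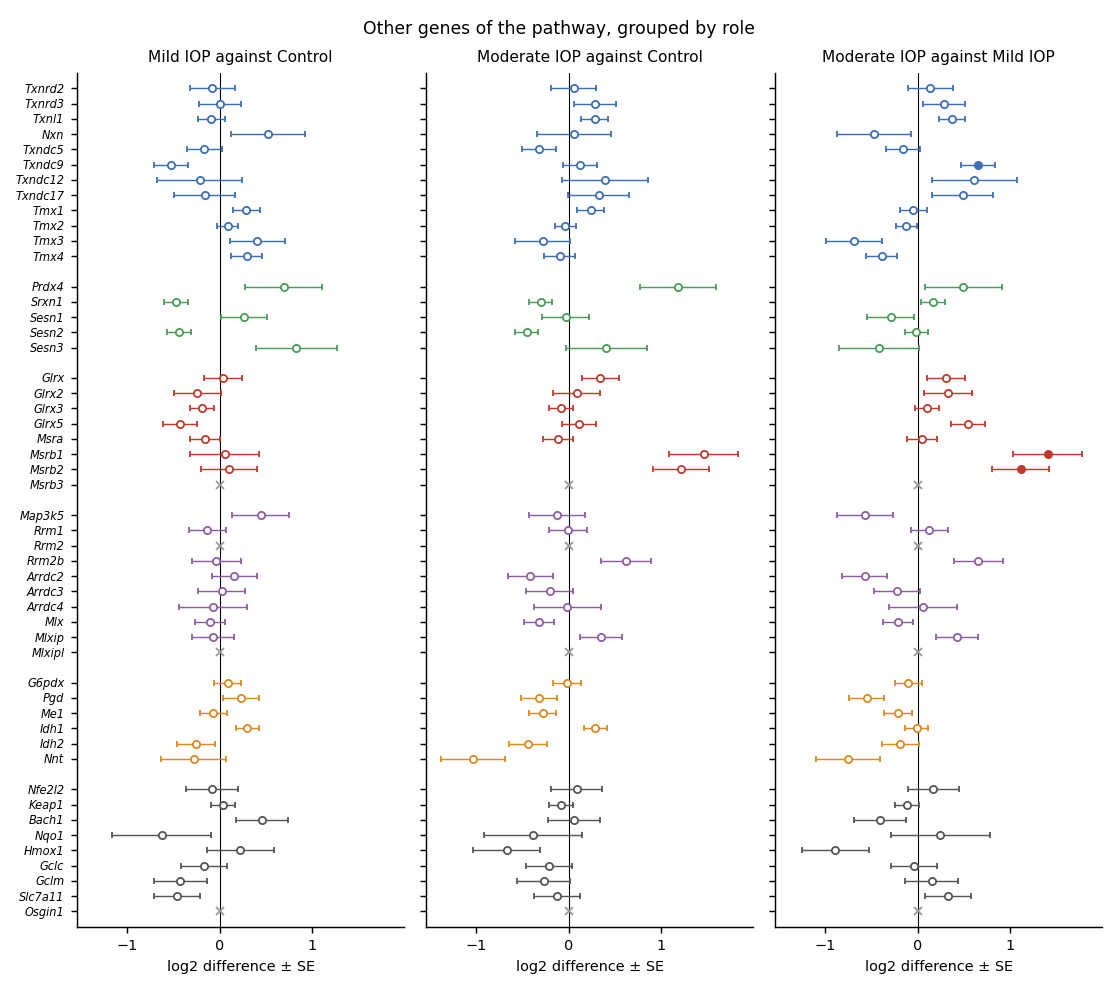
Log2 differences ± SE of the 50 other pathway genes in the 3 comparisons, grouped by role from thioredoxin-fold proteins (top) to the Nrf2 group (bottom), with filled points for an FDR below 0.1 and crosses at 0 for the 4 genes not tested. Filled points are Txndc9 (0.65), Msrb1 (1.40) and Msrb2 (1.11) between Moderate IOP and Mild IOP.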

How the data were processed

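RNA sequencing libraries of immunopanned mouse RGCs were made with the SMART-seq v4 and Nextera XT kits, which do not keep strand. The values deposited are gene-level FPKM, which the authors estimated separately for each of the 9 libraries after alignment to mm10. The submitters' processing notes name FastQC, Trimmomatic, TopHat2, Cufflinks and Cuffdiff, and the versions are not given in the sources used here. Each value has confidence bounds and a status, and 2 genes with an estimate not marked OK were left out.

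FPKM were summed per symbol and divided by a median-of-ratios factor for each library. Log2(FPKM + 1) of the 13043 genes with a mean of at least 0.5 was fitted as 3 group means with limma 3.58.1 in R 4.3.3 (empirical Bayes with a trend, Benjamini-Hochberg adjustment within each comparison, FDR 0.1). FPKM are not counts, so no count model was used, and the pseudocount of 1 understates the change of low genes. Whole libraries were taken as replicates and groups came from the sample labels. On simulated data for Moderate IOP against Control (13043 genes, 200 changed) the fit recovered 76 of 105 genes changed by 1 on the log2 scale and 92 of 95 changed by 2, with 14 false calls. The simulated noise was normal and independent between genes. The changed genes were drawn only from those with a mean log2(FPKM + 1) above 3, so the recovery does not cover lower genes such as Txnip.

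The 9 genes, the pathway list and the marker lists were chosen with earlier results of these data known. Named genes are the 9, in each pathway group those past FDR 0.1 and the 2 with the highest mean level, and the 5 nearest to Txn1 among genes of at least 10 FPKM. Genes named outside this rule are marked. Alternatives varied the scaling, pseudocount, filter, variance estimate and replicate block, and left out each library in turn. Fragments were derived from the bounds as the squared ratio of the FPKM to its standard error, taken from its distance to the upper bound, and cover counting error only. Tables and figures used Python 3.11.15, numpy 2.4.6, pandas 2.3.3 and matplotlib 3.10.9.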

Additional observations from a re-analysis of the deposited data

Results flagged for a closer look

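Txn1 differed from Control in opposite directions in the pressure groups, by -0.69 under Mild IOP and 0.60 under Moderate IOP, with every Mild IOP library below and every Moderate IOP library above every Control library. Prdx6 did the same, by -0.27 and 0.50, but only under the median-of-ratios scaling, since its Mild IOP libraries overlapped Control under the 3 other scalings. Both genes were chosen on these values, so this is a description. Both were also past an FDR of 0.1 between Moderate IOP and Mild IOP, one of the contrasts known when they were chosen, so that the difference between the groups was not tested independently. The direct comparison sets the Moderate IOP pool against the Mild IOP pool, and its FDR covers the spread between libraries and not between mice. This comparison passed an FDR of 0.1 by limma in the pathway genes Txndc9 (0.65, FDR 0.0655), Msrb1 (1.40, FDR 0.0526) and Msrb2 (1.11, FDR 0.0577). Over 18 alternatives their FDR ranged from 0.0424 to 0.239, from 0.0320 to 0.196 and from 0.0233 to 0.196. These 3 of 46 tested pathway genes are a share of 6.52%, below the 10.2% of all genes called in this comparison, and 0 of 46 passed without Mild IOP replicate 1 or without Mild IOP replicate 2. Calls over all genes fell too, from 1324 to 519 without Mild IOP replicate 2.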

How the results depend on the processing

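Changing the filter, keeping failed estimates, and changing the variance estimate or the replicate block leave a group difference unchanged by construction. Leaving out a library of the group not compared moves it only through the scaling. Such values are included in the 483 alternative values of the differences of the 9 genes. Of the 483, 473 moved by less than the spread between replicates. Txn1, Prdx1 and Prdx6 kept their sign in all 3 comparisons and 18 alternatives. The number past FDR 0.1 was 0, 0 and 2 to 3. The 10 that moved did so under scaling on genes of at least 50 FPKM, which shifted the median of all genes by 0.16 under Mild IOP, -0.051 under Moderate IOP and -0.22 between them. Under Mild IOP Prdx3 was then at 0.28 and Prdx5 at -0.21. Between Moderate IOP and Mild IOP Txn1 was at 1.05, Prdx6 at 0.52, Prdx1 at 0.41, Prdx3 at 0.055, Prdx2 at 0.029 and Txnrd1 at -0.30, while Txn2 (-0.049) and Prdx5 (-0.049) changed sign. In this comparison 69.3% of calls over all genes were higher under Moderate IOP with the scaling used here, 57.4% with upper quartile scaling, 52.5% without scaling and 26.4% with scaling on abundant genes. Under Moderate IOP against Control the share was 51.7%, and 42.0% without scaling. Signs of other differences of the 9 genes also changed under some alternatives. Under Mild IOP against Control these were Txnrd1, Txnip and Prdx3, and under Moderate IOP against Control Txn2, Txnrd1, Txnip and Prdx2. Between Moderate IOP and Mild IOP they were Txnrd1 and Txnip. For Txnip under Moderate IOP against Control (-0.081), leaving out 1 library gave -0.77 to 0.38, within its wide spread between replicates.

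Counts over all genes moved more. Under Mild IOP against Control (52 genes) 22 passed with abundant-gene scaling, 24 without a filter, 85 with a filter at 5 FPKM, 11 with the variance of the compared groups alone, and 15 to 183 on leaving out 1 library, lowest without Mild IOP replicate 2 and highest without Mild IOP replicate 3. Under Moderate IOP against Control (240) 134 passed with the variance of the compared groups, and 61 to 287 on leaving out 1 library, lowest without Control replicate 1. Between Moderate IOP and Mild IOP (1324) 2209 passed with abundant-gene scaling, and 519 to 1399 on leaving out 1 library, lowest without Mild IOP replicate 2. Of the other pathway genes, 1 passed under Moderate IOP against Control with upper quartile scaling, without a filter and with the filter at 5 FPKM, and 0 to 2 on leaving out 1 library, most without Control replicate 3. Between Moderate IOP and Mild IOP 9 passed with abundant-gene scaling, 1 without a filter, 5 with the filter at 5 FPKM, and 0 to 4 on leaving out 1 library. As in the main fit, all groups were assumed to share 1 spread where a group was left with 2 libraries. The causes were not tested.

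Replicate numbers did not pair the libraries, with correlations of -0.0051 to 0.044 between deviations of libraries with the same number. With the replicate number as a block 25 genes passed under Mild IOP, 135 under Moderate IOP and 1120 between them, and 1 other pathway gene passed under Moderate IOP against Control. Txnip had the fewest derived fragments of the 9 genes, 3.24 in its lowest library.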
